A study of Mus musculus with 2 samples.

Results

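Smooth muscle cells were examined in a single-cell RNA library of sorted neonatal mouse heart and liver cells. They were selected by their counts of unique molecular identifiers (UMIs, each standing for 1 captured transcript). A barcode was kept when it had more than 2000 and fewer than 75000 gene UMIs, more than 500 genes, and under 5% each of mitochondrial and haemoglobin transcripts. It also had to hold at least 3 UMIs of Myh11, at least 3 of Acta2 and none of Cdh5, whatever its hashtag. Of 14348 cells within the quality limits, 781 had 3 or more Acta2 UMIs, 66 of these had 3 or more Myh11 UMIs, and 50 of those had no Cdh5 UMI. The 50 Myh11 Acta2 cells were 0.348% of the cells (exact binomial 95% interval 0.259 to 0.459). The levels of Myh11, Acta2 and Cdh5 in them were set by that choice and are given only as a description.

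The pups were C57BL/6 and received 1 dose of 40 mg/kg 4-hydroxytamoxifen at postnatal day 3, and tissues were taken 3 days later. Control pups were compared with pups carrying Cdh5-CreERT2, an inducible Cre driven by an endothelial promoter, together with either the iSuRe-Cre or the iSuRe-HadCre allele. After recombination, the iSuRe-Cre allele is meant to switch on a membrane-bound Tomato reporter (MbTomato) together with lasting Cre. The iSuRe-HadCre allele is meant to express Cre only for a time, and to switch on MbTomato when its Cre gene is removed. The study measured loss of Notch1 in endothelial cells, after removing cells low in Cdh5 and WPRE, and not in smooth muscle cells of this library. Floxed alleles and the genotype of the control are not named in the labels. Cells were labelled with an antibody to CD31, the product of Pecam1, and with 1 of 6 hashtags for the genotype and organ, sorted as CD31+ MbTomato+ cells, and pooled in 1 library. There were therefore no replicates and no tests, and all intervals below cover counting error only.

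Smooth muscle cells form the contractile layer of arteries and veins and of hollow organs such as gut, airway and bladder. They contract when calcium and calmodulin activate myosin light chain kinase (Mylk), which phosphorylates the light chain (Myl9) of smooth muscle myosin (Myh11) on actin filaments made of Acta2 and Actg2. Most of their contractile genes are driven by serum response factor with its cofactor myocardin (Myocd) through CArG boxes in promoters and introns. Acta2 is used by vascular and visceral muscle, Actg2 is the enteric actin typical of visceral muscle, and Rgs5, a regulator of G-protein signalling, marks mural cells of blood vessels.

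Promoter windows are shown because these genes were high together in the 50 cells. RefSeq windows of the GRCm38.p6 build run from 250 bases before to 50 after the start of transcription, and 23 of the 27 contractile genes listed for this report had one. Myh11, Tagln and Actg2 were among those without a window. A CArG box was searched as CC, any 6 letters that are A or T, and GG, a pattern that reads as the same pattern on both strands. It was found in 4 of 27 windows of contractile genes (14.8%, exact 95% interval 4.19 to 33.7) and in 535 of all 32851 windows (1.63%). When 1 C or G was allowed among the 6 middle letters, the shares were 25.9% and 9.98%. Capitals mark the boxes below, and in the window of Myl9 the first is exact and the second holds 1 such letter.
Myl9, plus strand of chr2:156775214-156775419, before the first annotated exon: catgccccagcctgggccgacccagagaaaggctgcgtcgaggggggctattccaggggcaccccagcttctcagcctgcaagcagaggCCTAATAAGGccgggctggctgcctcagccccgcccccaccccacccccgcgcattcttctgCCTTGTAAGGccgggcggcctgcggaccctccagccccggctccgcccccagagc
Vcl, plus strand of chr14:20929148-20929397, before the first annotated exon: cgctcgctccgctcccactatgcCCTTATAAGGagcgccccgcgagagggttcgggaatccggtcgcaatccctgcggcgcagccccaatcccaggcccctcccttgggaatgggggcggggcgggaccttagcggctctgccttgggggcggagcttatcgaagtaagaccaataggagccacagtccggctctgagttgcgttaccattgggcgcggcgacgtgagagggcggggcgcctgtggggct
Acta2, minus strand of chr19:34255438-34255467, 1 letter off, within an annotated exon: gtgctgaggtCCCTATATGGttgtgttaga
Acta2, minus strand of chr19:34255388-34255417, 1 letter off, within an annotated exon: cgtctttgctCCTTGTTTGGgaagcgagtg
The exact box of Myl9 began 161 bases before the RefSeq start and that of Vcl, the focal adhesion protein vinculin, 227 bases before it. A match is a description of the letters, and no binding was measured.

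The 50 cells held 779637 gene UMIs in all. Their totals ran from 2169 to 36062 with a median of 14065, against a median of 5695 in the other 14298 cells, and they had a median of 4167 genes. Mitochondrial shares had a median of 2.06%, and the highest haemoglobin share was 4.89%. To compare groups, UMIs were summed over cells and divided by the sum of all gene UMIs to give counts scaled to 1000000 UMIs (CPM). Log2 ratios were taken after adding 10 CPM, and a gene was counted as higher or lower at a ratio of 2-fold or more. Over 13879 genes with at least 200 UMIs, 486 (3.5%) were higher in the 50 cells than in the other cells and 859 (6.19%) were lower, with a median log2 ratio of -0.08.

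The contractile genes stood far above the other cells. Acta2 (ENSMUSG00000035783, GRCm38 chr19:34241090-34255590, minus strand), the smooth muscle actin, had 5261 UMIs, a level of 6748 CPM against 100.5 in the other cells. Myh11 (ENSMUSG00000018830, chr16:14194535-14291372, minus strand), the smooth muscle myosin, had 1306 UMIs, a level of 1675 CPM against 2.87. Per cell, Acta2 ran from 4 to 254 UMIs with a median of 104, and Myh11 from 3 to 107 with a median of 16. Of the 25 contractile genes that the choice of cells did not use, 23 were at least 2-fold higher than in the other cells and none was lower, with a median log2 ratio of 2.50.

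Tagln, the actin-bundling protein transgelin, was at 2850 CPM (exact Poisson 95% interval 2733 to 2971) against 44.5 in the other cells. It was seen in 50 of 50 cells, from 2 to 192 UMIs. Myl9 was at 1743 CPM (1652 to 1838) against 47.2, and was also seen in 50 of 50. Mylk was at 1151 CPM against 28.4 and was seen in 46 cells. Cnn1, the actin-binding calponin, was at 576 CPM (524 to 632) against 2.66, a ratio of 217 (189 to 249), in 40 cells. Synpo2 and Nexn, proteins of actin filaments and dense bodies, were at 696 and 576 CPM against 13 and 28.5. The tropomyosins Tpm1 and Tpm2, at 3380 and 1142 CPM, were 7.81 and 15.8 times the level of the other cells. Caldesmon, Cald1, was at 2844 CPM and 7.67 times. Myl6, a light chain used by many cells, had 2915 CPM and a ratio of 3.05, and vinculin 418 CPM and 2.92. Synm, a gene of the intermediate filaments, had 4 UMIs and was under 2-fold, with a ratio of 0.957 to the other cells (0.26 to 2.46).

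Shares of cells with a UMI were set beside macrophages (187 cells with at least 3 UMIs each of C1qa and C1qb), which do not use these genes. Tagln UMIs were seen in 8.56% of the macrophages, whose median total of 13310 UMIs was close to that of the smooth muscle cells. Cnn1 was seen in 80% of the Myh11 Acta2 cells (66.3 to 90) and in 1.07% of macrophages, and after thinning each cell to 2000 UMIs the shares were 50.4% and 0.4%. The plot of contractile genes by group of cells sets their levels beside those of mesenchymal and endothelial cells.

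**Figure D1:**
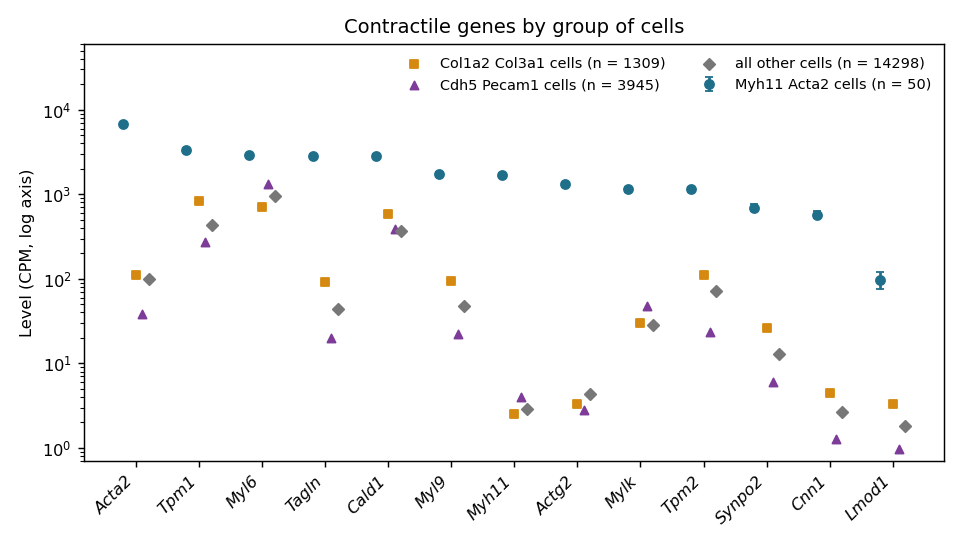
Levels in CPM (log axis) of 13 contractile genes in the 50 Myh11 Acta2 cells with exact Poisson 95% intervals, and in 1309 cells with 3 or more UMIs each of Col1a2 and Col3a1 and none of Cdh5, 3945 cells with 2 or more each of Cdh5 and Pecam1, and all 14298 other cells. The 50 cells are highest for each of the 13 genes, from 6748 CPM for Acta2 to 97.5 CPM for Lmod1. Acta2 and Myh11 chose the cells.

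Among transcription factors, Myocd was high and the factor it binds was barely counted. Myocd was at 419 CPM (375 to 467) against 2.47, a ratio of 170.1 (146 to 198), and was seen in 36 of the 50 cells and in 1.6% of macrophages. Srf, the serum response factor, had 11 UMIs in 9 cells. The related cofactors Mrtfa and Mrtfb were at 51.3 and 50 CPM against 39.6 and 62.6 in the other cells, a difference under 2-fold. Of 28 transcription factors compared, 5 were at least 2-fold higher and 5 at least 2-fold lower. Tcf21, a factor of epicardial and mesenchymal cells, was at 115 CPM against 6.62 and Meis1 at 389.9 against 97. Klf2 and Klf4, factors that respond to flow and serum, were lower, at 103 and 53.9 CPM against 368 and 162. Nkx2-5 and Nkx3-2, of the heart and the stomach, were at 0, where 3 UMIs would be 3.85 CPM. They were at 0.601 and 0.0707 CPM in the other cells, too low for a difference to be seen.

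Actg2 was counted in most of these cells and Rgs5 in few. Actg2 (ENSMUSG00000059430, chr6:83512905-83536265, minus strand) was at 1306 CPM against 4.35 in the other cells and was seen in 44 of 50 cells, from 0 to 95 UMIs. Rgs5 (ENSMUSG00000026678, chr1:169655501-169695813, plus strand) was at 173 CPM against 16.6 and was seen in 15 cells, from 0 to 42 UMIs. The background share in macrophages was 1.07% for Actg2 and 5.35% for Rgs5. A cell with at least 3 Actg2 UMIs and under 3 of Rgs5 was called an Actg2 cell, and the reverse an Rgs5 cell. There were 35 Actg2 cells (70%, exact interval 55.4 to 82.1), 2 Rgs5 cells (4%, 0.488 to 13.7), 5 cells with 3 or more of both, and 8 with neither. The cells with neither had from 2169 to 27183 UMIs with a median of 6669, against a median of 16911 in the Actg2 cells. Actg2 was at 75.6 CPM in them and 1451 in the Actg2 cells. The part of depth in these counts was not tested.

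**Figure D2:**
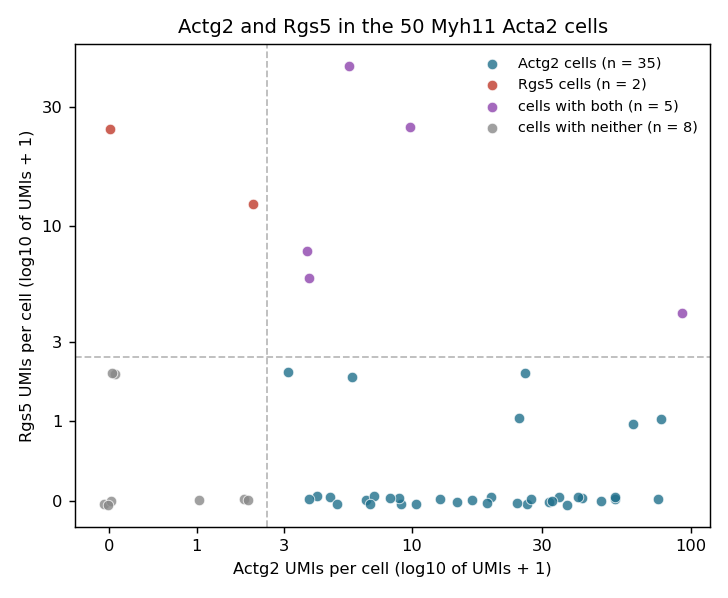
UMIs of Actg2 and of Rgs5 in each of the 50 Myh11 Acta2 cells, on axes of the log10 of UMIs plus 1, with dashed lines below 3 UMIs and a small jitter. Most of the 35 Actg2 cells lie on the line of 0 Rgs5 UMIs, and 1 of the 7 cells with 3 or more Rgs5 UMIs also holds 95 Actg2 UMIs.

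When the 2 Rgs5 cells were compared with the 35 Actg2 cells, 1127 genes had at least 100 UMIs, of which 91 (8.07%) were at least 2-fold higher and 296 (26.3%) lower in the Rgs5 cells. The 2 cells held only 17129 UMIs against 614754 in the Actg2 cells, so genes reached the minimum almost wholly through the Actg2 cells, and nothing is read from these shares. The 4 genes of the visceral list that reached it, Foxf1, Ptch1, Chrm2 and Hhip, had 0 UMIs in the 2 cells. A count of 0 there allows up to 215 CPM, against 340 CPM for Foxf1, 265 for Ptch1, 198 for Chrm2 and 189 for Hhip in the Actg2 cells, so a difference was not detectable for the last 2 genes. No gene of the vascular list had 100 UMIs there. The 7 cells with 3 or more Rgs5 UMIs, whatever their Actg2, were therefore also set against the 35 Actg2 cells, a grouping chosen after the counts were seen. Of 1286 genes with at least 100 UMIs, 66 (5.13%) were then higher and 130 (10.1%) lower. Of 13124 genes with any UMI, 1392 (10.6%) were higher and 1650 (12.6%) lower, with a median log2 ratio of -0.19.

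The 7 cells differed among themselves. Their Rgs5 and Actg2 UMIs were 42 and 6 in the first cell, 26 and 10 in the second, and 24 and 0 in the third. They were 12 and 2 in the fourth, 8 and 4 in the fifth, 6 and 4 in the sixth, and 4 and 95 in the seventh. The first 6 cells thus held few Actg2 UMIs, and the seventh had more Actg2 than any of the 35 Actg2 cells. That seventh cell also held 92 UMIs of Actc1, 23 of Myocd and 5 of Foxf1, and it had 1 Notch3 UMI.

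Genes of vascular mural cells were higher in the 7 cells. Of 21 listed genes with any UMI, 19 were at least 2-fold higher than in the Actg2 cells and none lower, with a median log2 ratio of 2.78. Without the first cell, which was called for more than 1 hashtag, the median was 2.30. With no minimum a single UMI in the 7 cells against 0 passes 2-fold, with a log2 ratio of 1.01, while 1 in the larger Actg2 group gives 0.22 the other way. Of the 19 genes 17 had at least 3 UMIs in the 7 cells, and Higd1b and Agtr1a had fewer. Notch3, the Notch receptor of arterial smooth muscle and pericytes, was seen in 7 of 7 cells with 18 UMIs and in 9 of 35 Actg2 cells with 13 UMIs, a ratio of levels of 8.62 (exact conditional interval 3.99 to 19.1). Its UMIs in the 7 cells, in the order above, were 2, 2, 2, 1, 5, 5 and 1. Mcam, an adhesion molecule of pericytes and smooth muscle, was likewise seen in 7 of 7 cells, and in 7 of 35 Actg2 cells, with 26 and 9 UMIs. Ebf1, a transcription factor of mural cells, had 77 UMIs in 6 of the 7 cells and 29 in 6 of the 35, levels of 779.7 and 47.2 CPM. Cspg4, the proteoglycan NG2, was at 243 and 26.0 CPM, and Pdgfrb, the PDGF receptor that recruits mural cells, at 152 and 14.6, a ratio that fell to 6.18 (2.08 to 18.1) without the cell that held 7 of its 15 UMIs there. Map3k7cl had 25 UMIs in 6 of the 7 cells against 10 in 2 of the 35.

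Markers often used for pericytes were uneven. Vtn had 22 UMIs, 21 of them in 1 Rgs5 cell and 1 in the other. Ndufa4l2 had 32 UMIs in 4 of the 7 cells against 3 in the Actg2 cells, with values of 8, 8, 13, 0, 0, 3 and 0 in the order above. Kcnj8 and Abcc9, the subunits of the potassium channel of pericytes, had 7 and 5 UMIs in 3 of the 7 cells each, and 13 and 20 UMIs in the Actg2 cells. Of 21 Higd1b UMIs, 20 lay in 1 cell outside both groups, which had 2 Rgs5 UMIs, 0 of Actg2, 15 of Pdgfrb, 9 of Ednra and 7 of Ndufa4l2. That cell held 4 UMIs of Myh11 and 7 of Acta2, close to the rule's minimum.

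Contractile genes were counted in both groups. In the 7 cells, 3 of 18 contractile genes with at least 100 UMIs were at least 2-fold higher than in the Actg2 cells and none was lower, with a median log2 ratio of 0.48. Tagln was at 5225 CPM in the 7 cells and 2565 in the Actg2 cells. Its ratio of 2.04 (1.84 to 2.25) fell to 1.47 (1.3 to 1.66) without the cell with 192 of its 516 UMIs there. Cnn1 was at 567 and 617 CPM and Myocd at 365 and 468, ratios of 0.92 (0.682 to 1.22) and 0.778 (0.534 to 1.1), but the seventh cell held 32 of the 56 Cnn1 and 23 of the 36 Myocd UMIs. Without it Cnn1 was at 292 CPM and Myocd at 158, ratios of 0.474 (0.3 to 0.716) and 0.338 (0.178 to 0.587), and of 17 contractile genes 2 were higher and 2 lower, with a median log2 ratio of 0.23. Neither of these had a UMI in the 2 Rgs5 cells. Dmd, which links actin to the membrane, was at 668 and 200.1 CPM, and at 396 in the 7 cells without the one with its highest count.

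Of the genes chosen for standing highest in the 7 cells, Ctnna3 and Kcnab1 were at 1357 and 1175 CPM against 43.9 and 42.3 in the Actg2 cells, each in 6 of 7 cells. Without the cell with its highest count, the ratio of Ctnna3 fell from 30.9 to 17.5 (11.1 to 28.5). Igfbp7, an insulin-like growth factor binding protein of vessels, was at 1478 against 91.1 CPM and was seen in 7 of 7. Mef2c, a muscle transcription factor, was at 1266 against 76.5 CPM, in 7 of 7 and 16 of 35 cells. Crip1 was at 2441 against 291 CPM, but 1 cell held 151 of its 241 UMIs, and without it the ratio fell from 8.38 to 3.61 (2.77 to 4.67). Fn1 and Pde3a were each seen in 7 of 7 cells, at 9.56 and 5.77 times the level of the Actg2 cells, and at 4.45 and 3.7 times without the cell with most of each gene's UMIs.

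The Actg2 cells held the genes of visceral muscle and gut mesenchyme. The labels name only heart and liver as organs, and the organ that these cells came from was not tested. Against the other cells, 14 of 16 visceral genes were at least 2-fold higher in the 50 cells, with a median log2 ratio of 1.84, while 12 of 20 vascular genes were, with a median of 1.14. Between the groups, 10 of 17 visceral genes with any UMI were at least 2-fold lower in the 7 cells and 2 were higher, with a median log2 ratio of -1.64. When 1 Rgs5 UMI was enough, 15 cells counted as having Rgs5, and the medians were -0.08 for the visceral and 2.07 for the vascular genes. Without the seventh cell they were -2.34 and 3.02. Foxf1, the Hedgehog-responsive factor of visceral mesoderm, had 209 UMIs in 32 of the 35 Actg2 cells and 6 in 2 of the 7 cells, a level 5.6 times higher (2.53 to 15.4) in the Actg2 cells. Foxf1 is also used by endothelium, and 26% of the Cdh5 Pecam1 cells had a UMI. Ptch1 and Hhip, targets of Hedgehog signalling that also dampen it, were at 265 and 189 CPM in the Actg2 cells and 60.8 and 91.1 in the 7 cells, where all 9 Hhip UMIs lay in the seventh cell.

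The regional factors divided the Actg2 cells. Tcf21 was seen in 23 of the 35, Hand2 in 15, Foxf2 in 15, Nkx2-3 in 15, Hand1 in 8 and Barx1 in 5. Nkx2-3, a homeobox factor of the midgut and hindgut mesoderm and spleen, was counted only in cells that also had a Tcf21 UMI (15 of 15). Hand1, in 8 cells, was counted only in cells with Nkx2-3 (8 of 8). Barx1, the homeobox factor of stomach mesenchyme, was seen in 5 cells, 5 of which had Tcf21 and 1 of which had Nkx2-3, and 36 of its 60 UMIs lay in 1 cell. None of the Barx1 cells had a Foxf2 or a Hand1 UMI. No cell held more than 5 UMIs of Nkx2-3 or 7 of Hand1, so a cell without a UMI may still hold the transcript. Nkx2-3, Hand1, Barx1 and Tcf21 were at 0 in the 7 cells with Rgs5. Over those 7 cells 3 UMIs would be 30.4 CPM, so against that floor Tcf21 was at least 4.6-fold higher in the Actg2 cells, and the exact conditional lower limit of its ratio was 3.67. The lower limits for Nkx2-3 and Hand1 were 1.31 and 1.01.

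The muscarinic receptors differed in where they were counted. Chrm2, the muscarinic receptor that is most abundant in gut and airway muscle, had 122 UMIs in 18 cells, all of them Actg2 cells with a Tcf21 UMI and 13 of them with Nkx2-3. It was at 0 in the 7 cells with Rgs5, so against 3 UMIs its level was at least 6.53-fold higher in the Actg2 cells, and the exact conditional lower limit of the ratio was 5.23. Chrm3, the receptor that drives contraction, had 99 UMIs in 18 cells. It was at 405 CPM in the 7 cells and 96 in the Actg2 cells, but 39 of its 40 UMIs in the 7 cells lay in the first, without which its level there was 11.3 CPM. Ano1, the calcium-activated chloride channel of smooth muscle and of interstitial cells of Cajal, was seen in 19 of 35 Actg2 cells, 14 of them with Nkx2-3, and in 2 of the 7 cells. Kit, the receptor that marks interstitial cells of Cajal, had 31 UMIs in 9 cells, all of them Actg2 cells. Its level of 39.8 CPM was below the 59.7 of the other cells, but Kit was at 127 CPM in endothelial and 8.07 in mesenchymal cells. Etv1, the third listed gene of interstitial cells of Cajal, was at 77 CPM against 21.9 in the other cells. Of these 3 genes, 2 were at least 2-fold higher than in the other cells and none was lower. Tacr2, Adra1a, Adra1d and Oxtr were at 0. In the other cells Adra1a, Adra1d and Oxtr were at 1.29, 0.00707 and 0.24 CPM, too low for a difference to be seen.

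**Figure D3:**
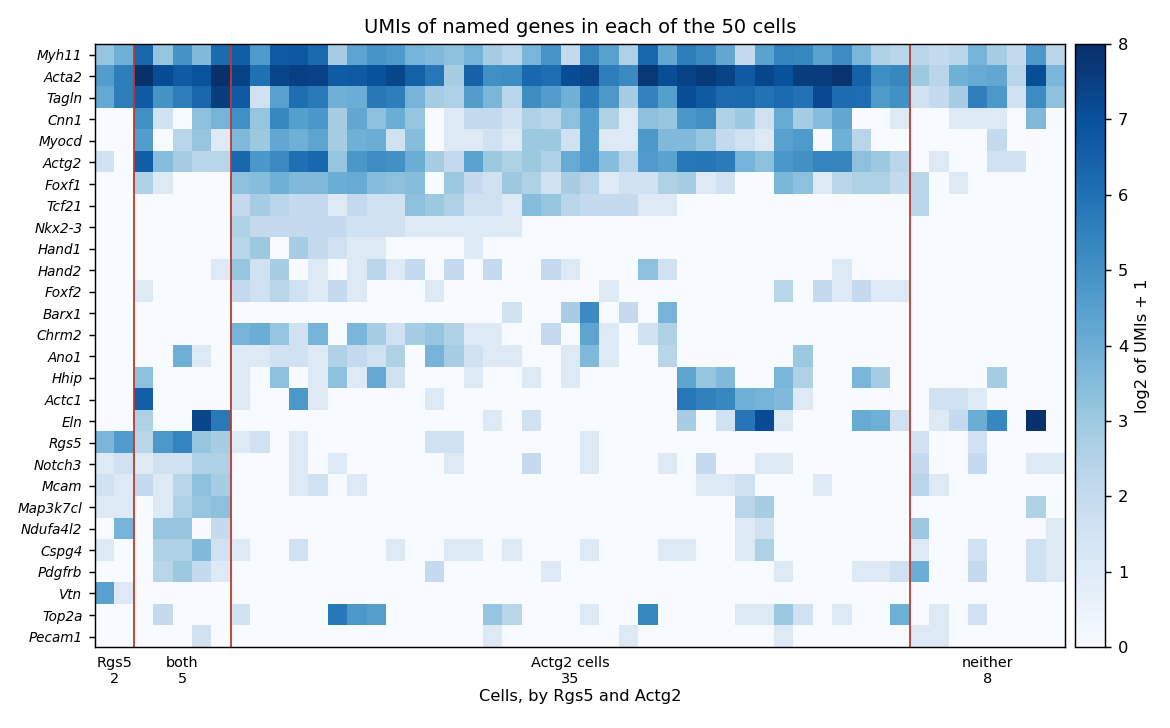
UMIs (log2 of UMIs plus 1) of 28 named genes in each of the 50 Myh11 Acta2 cells, in columns grouped as 2 Rgs5 cells, 5 with both, 35 Actg2 cells and 8 with neither, and ordered within groups by Nkx2-3 and then Tcf21. Nkx2-3, Hand1 and Chrm2 lie within the Tcf21 cells, Actc1 and Eln mostly outside them, and Notch3 and Mcam are in each of the 7 cells with Rgs5.

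Genes of contraction and relaxation signalling were higher than in the other cells. Of 20 receptors, channels and signalling enzymes compared, 14 were at least 2-fold higher and 1 was lower. Prkg1, the kinase that relaxes smooth muscle through cyclic GMP, was at 1909.9 CPM against 258 and was seen in 48 cells. Pde5a, which breaks down cyclic GMP, was at 498 CPM against 28.9. Gucy1a1 and Gucy1b1, the subunits of the nitric oxide receptor, were at 282 and 156 CPM against 15.4 and 11.6. Cacna1c, the pore of the L-type calcium channel, was at 527 CPM against 68.8 in 43 cells, and Kcnma1, the large potassium channel that opposes it, at 173 against 16.9 in 20 cells. Of the 220 Gucy1a1 UMIs, 73 lay in 1 cell. Between groups, Pde5a was 4.63 times higher (2.55 to 9.37) in the Actg2 cells, and Gucy1a1 was 3.18 times higher (2.2 to 4.53) in the 7 cells with Rgs5. Without the cell of the 7 with its highest count, the ratio of Gucy1a1 was 2.32 (1.5 to 3.49). The ratio of Cacna1c was 0.938 (0.682 to 1.27), and 0.631 (0.413 to 0.929) without the seventh cell.

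Among elastic fibre genes, Eln came from few cells and others from many. Fbn1, the fibrillin of microfibrils, was seen in 41 of 50 cells at 250.1 CPM against 84.6 in the other cells, and Mfap4 in 33. Eln, the elastin of artery walls, was at 1317 CPM against 125 in the other cells but was seen in 18 of 50 cells, and 1 cell with neither Rgs5 nor Actg2 held 514 of its 1027 UMIs. At least 10 Eln UMIs, a limit set after the values were seen, were present in 9 cells, of which 4 were Actg2 cells, 2 had Rgs5 and 3 had neither marker. In those 9 cells Tcf21 and Nkx2-3 were at 0 and Actg2 ran from 0 to 13 UMIs with a median of 4, against a median of 16 in the other 41 cells. Of the 24 matrix genes 13 were at least 2-fold higher than in the other cells. The fibrillar collagens Col1a1, Col1a2 and Col3a1 were at 1044, 707 and 786 CPM, 2.7, 2.14 and 2.23 times the other cells but below the 1162, 1182 and 1267 CPM of the mesenchymal cells, which were chosen by Col1a2 and Col3a1. The basement membrane collagens Col4a1 and Col4a2 were at 1104 and 516 CPM in the 7 cells with Rgs5 and 363 and 174 in the Actg2 cells.

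Actc1, the cardiac actin that is also made by embryonic and visceral smooth muscle, was at 387 CPM against 92.3 and was seen in 15 cells. At least 10 UMIs were present in 8 of them, from 11 to 92 UMIs, and the other 7 held 1 or 2 UMIs each. The 8 cells, a set chosen after the values were seen, had a median of 51.5 Actg2 UMIs against 7 in the other 42 cells. Other genes of heart muscle, except Tnnt2, were at or near 0 over the 50 cells. Myh6, Myh7, Nppa and Myl2 were at 0, Tnni3 had 1 UMI and Myl7 had 2. Over the 50 cells 3 UMIs would be 3.85 CPM, and Myh6, Myh7 and Nppa were below that in the other cells too. Their levels there were 2.3, 1.81 and 2.56 CPM, so no difference could be seen for them. Tnnt2, cardiac troponin T, had 99 UMIs in 9 cells, of which 1 held 38 and another 36. The 8 cardiomyocyte genes together ran from 0 to 5726 CPM per cell with a median of 0, and their summed level of 518 CPM was mostly Actc1.

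Among ligands and receptors of growth factor pathways, 11 of 24 were at least 2-fold higher and 4 lower than in the other cells. Igf1 was at 303 CPM against 87, Ptch1 at 228 against 55 and Wnt5a at 163 against 49.0. Pdgfra, the receptor of fibroblasts and of subepithelial cells of the gut, was at 153 CPM in the Actg2 cells, in 21 of them, and had 1 UMI in the 7 cells. Pdgfa, its ligand, was at 314 CPM in the 7 cells against 68.3, and Tgfb3 at 132 against 24.4. Without the cell with its highest count, the ratio of Pdgfa fell to 2.86 (1.5 to 5.2). Tgfb2 was at 233 against 101 CPM, and without such a cell its ratio was 1.47 (0.7 to 2.82), within counting error of 1.

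Of 13 Notch genes 3 were higher and 3 lower than in the other cells. The ligands of endothelium, Dll4 and Dll1, had 1 UMI each and Jag2 had 0. Jag1, a ligand that mural cells also make, was at 253 CPM in the 7 cells and 35.8 in the Actg2 cells, a ratio of 7.07 (3.83 to 13.2). The Notch target Nrarp had 17 UMIs in 6 of the 7 cells and 2 UMIs in the 35, and the target Heyl had 7 UMIs in 3 cells and 5 in 2. Of 11 Notch genes with any UMI, 9 were at least 2-fold higher in the 7 cells and none lower. Of the 9, Dll4 and Hey1 had under 3 UMIs in the 7 cells, and Notch3 and Heyl are also in the vascular list. Notch1 had 17 UMIs in 11 of the 50 cells, a level of 21.8 CPM against 37.5.

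Hox genes were grouped by cluster and paralogue group. The genes of paralogue groups up to 8 of the Hoxb cluster had 220 UMIs in 41 of the 50 cells. They were at 282 CPM against 67.6 in the other cells and 56.4 in free RNA. Hoxb4, Hoxb2 and Hoxb3 were at 65.4, 53.9 and 52.6 CPM against 15.4, 14.7 and 10.8. The 2 Hoxb genes of groups 9 to 13 had 0 UMIs, where 3 would be 3.85 CPM, and were at 6.05 CPM in the other cells. In the Hoxa cluster groups up to 8 had 87 UMIs in 25 cells and groups 9 to 13 had 37 in 9 cells. In Hoxd, groups up to 8 had 2 UMIs, at 2.57 CPM against 7.03. Hoxd groups 9 to 13 had 32 in 8 cells, at 41 CPM against 28.1. Within the Actg2 cells Hoxb4 was seen in 21 of 35 cells, and in the 7 cells in 3.

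Markers of endothelial, liver and blood cells were below their level in free RNA, the RNA in barcodes with 10 to 100 UMIs. Endothelial genes other than Cdh5 were lower for all 6 genes compared, with a median log2 ratio of -3.57. Pecam1, the gene of the sorted antigen, had 7 UMIs in 6 of the 50 cells, at 8.98 CPM against 260 in the other cells and 203 in free RNA. The labels give endothelial cells as the cell type, whereas the endothelial markers were all but absent from these 50 cells. That absence was in part set by the choice of cells without Cdh5. The 16 cells left out for Cdh5 UMIs had Pecam1 at 233 CPM, in 13 of them. Hepatocyte genes had a median log2 ratio of -4.05 and neutrophil genes -5.11, and Alb was at 15.4 CPM against 465. S100a8 and S100a9, the neutrophil calprotectin genes, were at 12.8 and 15.4 CPM against 1257 and 1266. Of the 5 macrophage genes, Csf1r, Adgre1 and C1qc were at 0. Of the stellate cell list, Lrat and Colec11 were at 0, against 0.382 and 4.56 CPM in the other cells. The summed 136 UMIs of that list were mostly Des and Hand2, which smooth muscle also makes. Krt14 had 28 UMIs in 2 cells, 23 of them in 1. The fibroblast list was higher than in the other cells, at 1269 CPM against 658, and was counted in 47 of the 50 cells, with Col1a1 as 814 of its 989 UMIs. The part of free RNA in the low counts was not tested.

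Cycling genes did not set the cells apart. Of 14 cell cycle genes none was 2-fold higher or lower than in the other cells, with a median log2 ratio of -0.26. Per cell the 14 genes had from 0 to 188 UMIs with a median of 4. At least 3 UMIs of Top2a, the topoisomerase of dividing cells, or of Mki67 were present in 9 cells, 8 of them Actg2 cells and 1 with Rgs5.

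Hashtags placed 16 of the 50 cells in a group, a share close to that of the other cells. HTODemux called 33 of the 50 negative for every hashtag (66%, exact interval 51.2 to 78.8), against 47.3% of the other cells. It called 16 positive for 1 hashtag (32%, against 33.9% of the other cells) and 1 positive for more (2%, against 18.5%). Of the 16 singlets, 11 were called control heart on counts of only 4 to 20 UMIs, 2 iSuRe-Cre heart with 5 and 82 UMIs, 2 iSuRe-HadCre liver with 6 and 7, and 1 iSuRe-Cre liver with 86. The 99th percentile over the other cells was 80 UMIs for the control heart hashtag and 91.1 for that of iSuRe-Cre heart, so only the cell with 82 UMIs came near the top of its hashtag's range. That was the Rgs5 cell with 24 Rgs5 and 0 Actg2 UMIs. The iSuRe-Cre liver hashtag was present in every one of the 50 cells, from 7 to 86 UMIs with a median of 21, below the median of 28 in the other cells, whose 99th percentile was 1943. By a second rule, the highest hashtag had at least 25 UMIs and 3 times the next in 15 cells (30%). In 14 of them it was the iSuRe-Cre liver hashtag. The same rule held for 8461 of the 14298 other cells (59.2%), and in 7802 of those the iSuRe-Cre liver hashtag was also the highest. With no group for most cells, genotypes and organs were not compared.

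**Figure D4:**
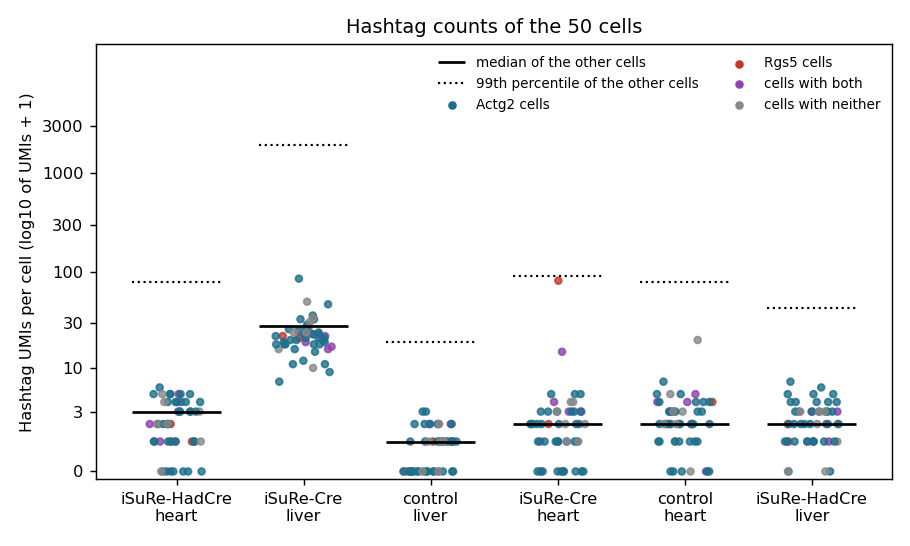
UMIs of each of the 6 hashtags (log10 of UMIs plus 1) in the 50 Myh11 Acta2 cells, as points coloured by Rgs5 and Actg2, with the median (solid line) and 99th percentile (dotted line) of the other 14298 cells. The 50 cells lie around the median of the other cells for every hashtag, and 1 Rgs5 cell with 82 UMIs of the iSuRe-Cre heart hashtag stands apart.

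The added transgene sequences were counted as genes of their own. Cre and ERT2, a part of CreERT2, were at 0 in the 50 cells, where 3 UMIs would be 3.85 CPM, against 10.7 and 15.2 CPM in the other cells. WPRE, an element placed after transgenes to raise their RNA, had 116 UMIs, at 149 CPM (123 to 178) against 198 in the other cells and 160.4 in free RNA, and 1 Actg2 cell held 29 of them. At least 3 WPRE UMIs were present in 11 cells (22%), against 44.6% of the endothelial, 14.6% of the mesenchymal and 20.9% of the macrophage cells. Tomato had 18 UMIs in 7 cells, all of which had at least 3 WPRE UMIs. Sv40-pA, the polyadenylation sequence, had 172 UMIs in 23 cells, at 221 CPM (189 to 256) against 86.5 in the other cells and 142 in free RNA. At least 3 UMIs were present in 15 cells (30%), against 14.3% of endothelial, 15.6% of mesenchymal and 11.2% of macrophage cells. FlpE had 35 UMIs in 9 cells, all of them Actg2 cells. At least 3 FlpE UMIs were present in 3 cells (6%), against 2.33% of endothelial, 22.1% of mesenchymal and 6.42% of macrophage cells.

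WPRE and Sv40-pA were also counted together. At least 3 UMIs of both were present in 1 cell, of WPRE alone in 10, of Sv40-pA alone in 14 and of neither in 25, and 12 cells had no UMI of any of the 6 transgene sequences. Among the 1309 mesenchymal cells the same counts were 15, 176, 189 and 929. Of the 9 cells with at least 10 Eln UMIs, 7 had at least 3 Sv40-pA UMIs and 1 had at least 3 of WPRE, against 8 and 10 of the other 41 cells, a comparison chosen after the values were seen. As the hashtags assign few of these cells, the genotype behind each sequence cannot be told apart here.

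**Figure D5:**
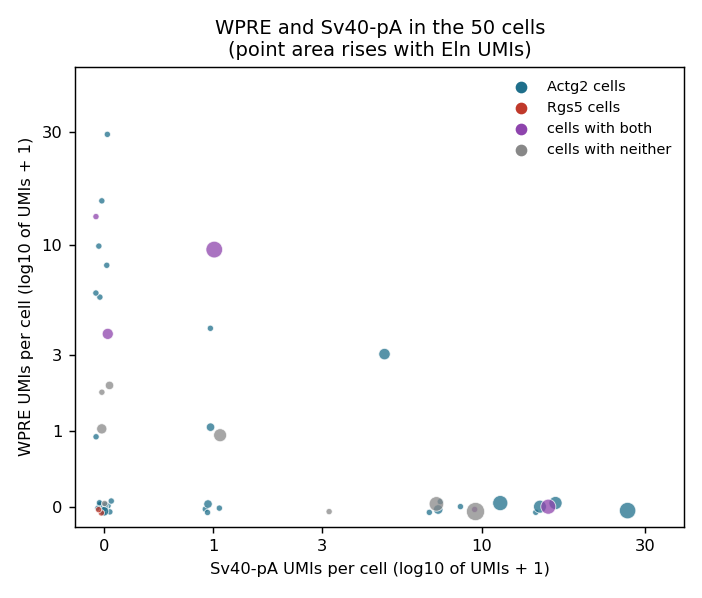
UMIs of Sv40-pA and of WPRE in each of the 50 Myh11 Acta2 cells (axes of log10 of UMIs plus 1, small jitter), coloured by Rgs5 and Actg2, with point areas that rise with Eln UMIs. In all, 1 cell lies at 3 or more UMIs of both, and most of the large points lie along the Sv40-pA axis.

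In a principal component analysis of 1000 variable genes, the first component took 14.4% of the variance. Its genes at one end were Meis2, Foxp2, Hmga2, Sdk1, Nrp2 and Ptn, and at the other Crip1, Eln, Igfbp7, Plac9a, Mustn1 and Bgn. The median score was 4.64 in the Actg2 cells, -5.42 in the 7 cells with Rgs5 and -7.18 in the 8 cells with neither, and the ranges of all groups overlapped. Spearman's rho of the score with a cell's total UMIs was 0.58 over the 50 cells of 1 library, and the part of depth in this axis was not tested. Meis2 was at 1169.6 CPM in the Actg2 cells and 182 in the 7 cells, and Ptn at 859 and 10.1. Egfem1, in the second component, had 448 UMIs in 6 Actg2 cells and 0 in the 7 cells.

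The cells at the edge of the rule differed in level. In 4 cells the lower of the Myh11 and Acta2 counts was 3 UMIs, just inside it, with Tagln at 4726 CPM and Actg2 at 1592 CPM over a median of 4918 UMIs. In 5 cells it was 2 UMIs, just outside, with Tagln at 755 and Actg2 at 180.3 CPM over a median of 12452 UMIs. The 16 cells with at least 3 UMIs of both genes that were left out for 1 to 26 Cdh5 UMIs had Myh11 at 409 CPM, Actg2 at 322 and Pecam1 at 233. A further 356 cells had at least 3 Acta2 UMIs with no Myh11 and no Cdh5, and Cnn1 and Actg2 were at 16.2 and 13 CPM in them.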

How the data were processed

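The authors ran Cell Ranger 7.1.0 on the gene and hashtag reads of 1 library, against GRCm38 with Ensembl genes and added transgene sequences, and deposited the raw matrix of UMI counts, not normalized, which holds 21951 genes and 13 hashtag and multiplexing features. Of the latter, 6 have a group in the labels and the other 7 were not used. Among 2755147 barcodes, 24161 had more than 2000 gene UMIs and 14348 passed the limits. No doublet caller was run beside HTODemux of Seurat 5.3.0, run at a positive quantile of 0.99 on the 6 hashtags.

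The cells, the gene lists and the comparisons were chosen with earlier results of these data known. UMIs were summed over cells. Poisson and binomial 95% intervals are exact, and those of ratios are exact conditional ones. With 1 library there was no test and no p-value, and the counts of cells are not counts of animals. Comparisons used a minimum of 200 UMIs for the 50 cells against the others and 100 within them. For genes at 0, the floor was 3 UMIs over the group. Thinned shares are the expected share over all draws of 2000 UMIs. Free RNA was the sum of 24194 barcodes with 10 to 100 UMIs.

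Named genes were members of the lists, the 10 highest and 10 lowest genes of each comparison, the 10 most abundant genes and Hox genes with at least 20 UMIs. Beyond the 6 of each list with the highest level in the 50 cells, list members were named after their values were seen, as were the 7 cells with Rgs5 and the sets by Eln and Actc1. Nrp2, Plac9a and Mustn1 are named only as leading genes of a component. Ratios were checked on simulated counts. Computations ran in R 4.3.3 and in Python 3.11.15 with scipy 1.17.1 and numpy 2.4.6. A gene withheld from the text is not reported here, and counts over lists include it.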

Additional observations from a re-analysis of the deposited data

How the results depend on the processing

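With 1 library, no replicate could be left out, and no paired analysis was possible because there are no replicates. Of 30 other settings, 25 left the value within its limits and 5 moved it, and of 22 more added after the data were seen, 14 left it there and 8 moved it. None reversed a direction. The limits were 1.5-fold for counts and ratios and the counting interval for WPRE. The number of cells ran from 41 to 66 over these settings and the contractile median from 2.50 to 2.72. The count of Rgs5 cells rose from 2 to 4 with a minimum of 5 UMIs, and to 7 when Actg2 was disregarded. The visceral median of the 2 Rgs5 cells, -4.58, was -7.85 with 1 CPM added, -2.63 with no minimum count and -1.68 with a minimum of 1 UMI of Rgs5 or Actg2. All 4 genes behind it were at 0 in the 2 cells, so its size is set by the CPM added. The vascular list had no gene with 100 UMIs there, and its median with no minimum was 2.42 over 20 genes. For the 7 cells, the vascular median of 2.78 moved to 3.48 with 1 CPM added, to 3.79 with a minimum of 100 UMIs a gene, which left 1 gene, and to 2.07 with a minimum of 1 UMI. The visceral median of -1.64 was -0.08 with a minimum of 1 UMI, where 15 cells counted as having Rgs5, -2.42 with one of 5 UMIs, and -2.34 without the cell with the most Actg2 UMIs. The cells negative for every hashtag fell from 33 to 18 at a positive quantile of 0.95. WPRE fell from 149 to 117 CPM without the cell with the highest count, which held 29 of the 116 UMIs. The causes were not tested. The sum of 98750 UMIs over the 7 cells limits every statement about them.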
